A study of Mus musculus with 18 samples.

Results

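The 5 genes described here encode the receptor chains for IL-3, IL-5 and GM-CSF in mouse eosinophils. They are *Il5ra*, *Il3ra* and *Csf2ra*, which encode the α chains, and *Csf2rb* and *Csf2rb2*, which encode β chains. They were chosen by name, with earlier results of these data known, and are 5 of the 55029 genes listed in the count files, of which 54232 are listed in every file.

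IL-3, IL-5 and GM-CSF sustain the survival of eosinophils and prime them for activation. In each receptor a cytokine-specific α chain pairs with a β chain that carries the signal through JAK2, STAT5, RAS-MAPK and PI3K, and mice have, beside the common β chain of *Csf2rb*, a close copy encoded by *Csf2rb2* that serves IL-3. Eosinophils are known to change the amount of these receptors when they are activated, and IL-5 itself is the lineage's main growth factor.

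RNA was measured in peritoneal eosinophils of C57BL/6 mice of the NJ.1638 line, left after removal of cells binding beads against Thy1.2 and B220, and cells of every group, the unstimulated ones included, carried the line's *Il5* transgene. Stimulation in serum-containing DMEM lasted 18 h, and the time in culture of the unstimulated cells, the promoter of the transgene and the age of the mice are not given in the sources used here. The 18 libraries comprise 3 of cells given heat-inactivated *E. coli*, 3 given IFN-γ at 50 ng/ml, 3 given both stimuli, 3 given IL-4 at 100 ng/ml and 6 of unstimulated cells. The paper calls the replicates biological without saying whether they came from separate mice or cultures, so p-values measure only the spread between these samples, which may in part be technical.

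The libraries form 2 sets by the layout of their files. A set of 12 libraries comprises *E. coli*, IFN-γ, both stimuli and unstimulated a, b and c, with 1523808 to 2734041 counts on genes in a library. A set of 6 libraries comprises IL-4 and unstimulated d, e and f, with 3625036 to 6482289 counts on genes in a library. Stimulated libraries were set against the unstimulated ones that came with them, so the 3 comparisons in the 12-library set share the same controls. Levels are scaled counts as CPM, normalized between libraries (normalized CPM), and a level of 3 counts, 1.10 to 1.97 CPM in the 12-library set and 0.463 to 0.828 CPM in the 6-library set, was taken as the floor of detection, for counting error only.

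Counts of abundant genes in the 12-library set approached a ceiling. The largest count of any gene was 4089 to 4095 in every one of these libraries, just under the 4096 sequences that a molecular identifier of 6 bases can take, whereas it was 87377 to 191131 in the 6-library set. *Csf2rb* had 2798 to 4089 counts in the former set, *Csf2ra* 1906 to 3514 and *Csf2rb2* 1128 to 3398, while *Il5ra* had 88 to 557 and *Il3ra* 35 to 128. Values for the former set are given from the deposited counts, and for the more abundant receptor genes and where calls or sizes differ also from counts corrected for identifier collisions. The correction assumes that reads were collapsed by identifier and that identifiers are used equally often, which the sources used here do not state. Tests on corrected counts took them as observed, so their SE and p do not model the error that the correction adds. Levels were not compared between the sets.

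**Figure D1:**
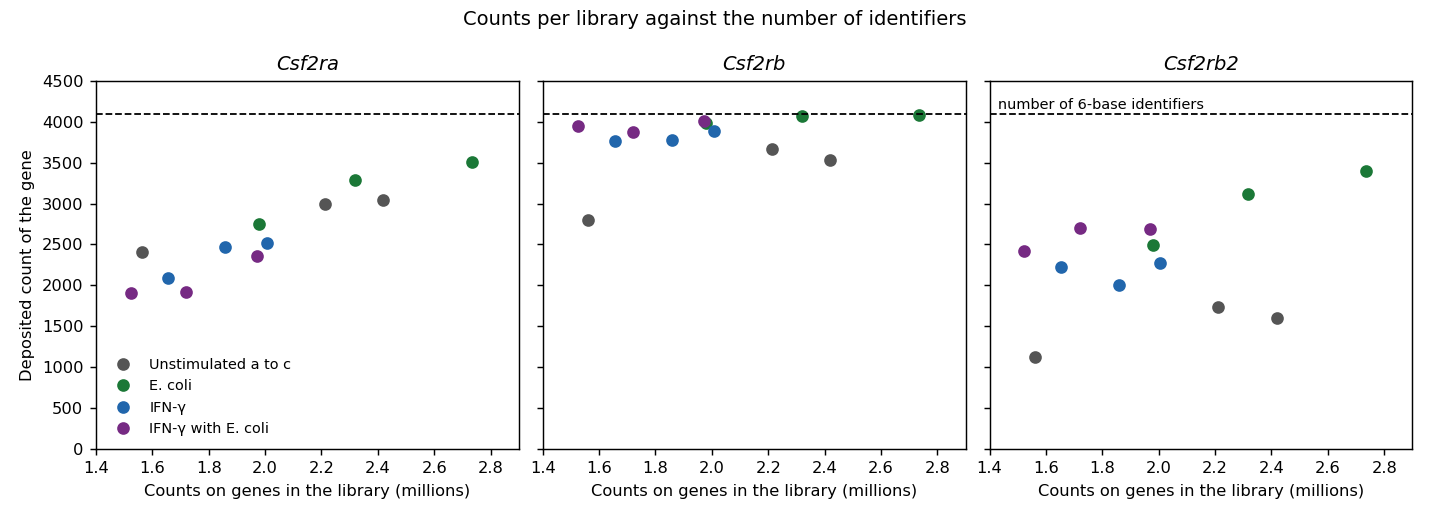
Deposited counts of *Csf2ra*, *Csf2rb* and *Csf2rb2* (vertical axis) in the 12 libraries of the 12-library set against the counts on genes of each library (horizontal axis), with points coloured by group and the dashed line at 4096. *Csf2rb* reached 4072, 4089 and 3985 counts with *E. coli*, next to the line, and the highest counts of *Csf2ra* and *Csf2rb2* were 3514 and 3398.

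Marker genes were read before the receptors. Of 8 eosinophil genes, 7 or 8 were above the floor in at least 1 library of each group, and they summed to 2806 to 4983 normalized CPM in the 12-library set and 4964 to 5962 in the 6-library set, led by *Alox15* or *Ccr3*. *Epx*, the eosinophil peroxidase gene, was low, at 0 to 1.90 CPM in the 12-library set and 1.32 to 3.61 CPM in the 6-library set. Mesothelial genes summed to at most 2.08 CPM, T cell genes to 1.30 to 8.94 CPM, led by *Cd3d*, and dendritic cell genes, led by *Xcr1* in most libraries, to 3.67 to 8.77 CPM in the 12-library set, 4.31 to 7.93 in unstimulated cells d–f and 7.42 to 16.6 with IL-4, where *Xcr1* rose by 1.34 (adjusted p = 0.042). Macrophage, B cell, neutrophil and mast cell genes were present and are given beside the results they accompany. In these bulk libraries fewer cells of a type and less RNA per cell cannot be told apart.

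With *E. coli*, edgeR's test called 2 of the 5 receptor genes at an adjusted p under 0.05, 1 higher and 1 lower, against 30.2% of the 9883 genes tested. With IFN-γ it called 3, 2 higher and 1 lower, against 31.6% of all genes, and with both stimuli 3, 2 higher and 1 lower, against 49%. With IL-4 it called 2, 1 higher and 1 lower, against 10.3% of 10556 genes. On corrected counts 3 receptor genes were called in each of the comparisons with *E. coli*, IFN-γ and both stimuli, against 31.2%, 32% and 49.3% of 9858 genes. With only 5 genes these counts serve to place the single genes and were not tested against the background. The median log2 fold change of the 5 genes was -0.01 with *E. coli*, 0.05 with IFN-γ, 0.02 with both stimuli and -0.22 with IL-4, beside -0.02, -0.03, -0.04 and 0.00 for all genes tested. On corrected counts it was 0.20, -0.12 and -0.24 with *E. coli*, IFN-γ and both stimuli.

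**Figure D2:**
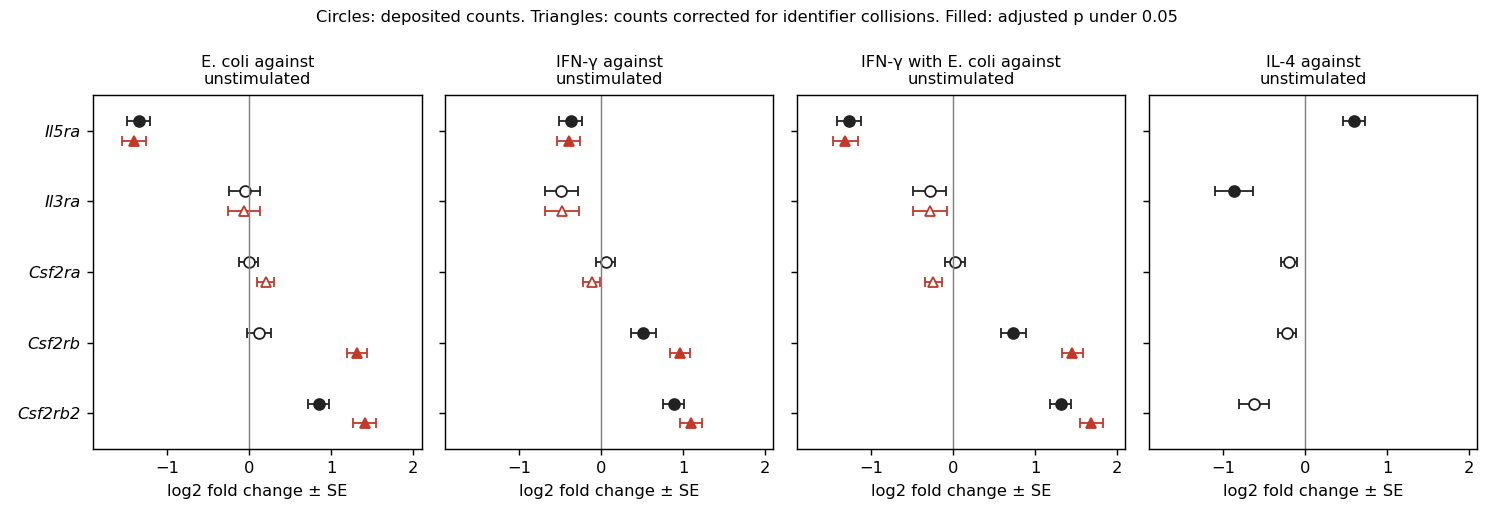
Log2 fold change of each receptor gene against the unstimulated libraries of its set (horizontal axis, bars for the SE), from deposited counts (circles) and, for the 12-library set, from corrected counts (triangles), with filled symbols for an adjusted p under 0.05. *Il5ra* lies at -1.35 with *E. coli* and at 0.60 with IL-4, and *Csf2rb* moves from 0.12 to 1.31 with *E. coli* when counts are corrected.

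*Il5ra* encodes the α chain that binds IL-5. It was at 208, 154 and 176 normalized CPM in unstimulated libraries a, b and c. With *E. coli* it was at 68.5, 69.9 and 73.6, and with IFN-γ at 151, 123 and 143. Every *E. coli* library lay below every unstimulated and every IFN-γ library. With both stimuli *Il5ra* was at 78.1, 86.0 and 58.0, a range that contained that of *E. coli* alone. In order from the lowest mean the groups were *E. coli* (70.7 ± 2.61, SD, n = 3), both stimuli (74.1 ± 14.4), IFN-γ (139 ± 14.5) and unstimulated cells (179 ± 26.9), and only the lowest pair overlapped.

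The log2 level of *Il5ra* fell by 1.35 with *E. coli* (SE 0.14, adjusted p = 7.6e-07), which is 2.55-fold lower, and by 1.28 with both stimuli (SE 0.15, adjusted p = 8.2e-07). With IFN-γ the log2 fold change was -0.37 (SE 0.14, adjusted p = 0.044). That last call was lost when unstimulated library a or c or any of IFN-γ libraries 1, 2 and 3 was left out (adjusted p = 0.24, 0.075, 0.052, 0.23 and 0.095), with log2 fold changes of -0.44 to -0.25 over all such fits, and under DESeq2, where the adjusted p was 0.12. The call with IFN-γ was also lost in edgeR with the size factors of DESeq2 (adjusted p = 0.054) and with no filter on low counts (adjusted p = 0.077). With corrected counts the values were -1.40, -1.32 and -0.40 with *E. coli*, both stimuli and IFN-γ.

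*Il5ra* in the 6-library set was at 43.3, 38.4 and 41.3 normalized CPM in unstimulated libraries d, e and f and at 65.4, 58.5 and 62.2 with IL-4. The IL-4 libraries all lay above the unstimulated ones. The log2 fold change was 0.60 (SE 0.14, adjusted p = 0.020), 1.51-fold higher. The call was lost without unstimulated library f (adjusted p = 0.058) and without IL-4 library 1, 2 or 3 (adjusted p = 0.11, 0.071 and 0.079), while the log2 fold change stayed between 0.55 and 0.63. Fits without an IL-4 library called fewer genes of all as well.

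B cells also use IL-5 receptors, and 6 B cell genes moved with *Il5ra* in several groups although the isolation removed B220-binding cells. They summed to 217, 196 and 117 normalized CPM in unstimulated cells a–c, 40.8, 44.5 and 76.5 with *E. coli*, and 100.2, 61.5 and 58.2 with IFN-γ. In the 6-library set they summed to 25.0, 23.7 and 43.4 in unstimulated cells d–f and to 64.3, 58.7 and 71.8 with IL-4. *Ighm* was the most abundant of them in all 18 libraries, 4 to 6 of the 6 were above the floor in each library, and *Pax5* was at 0 in *E. coli* library 2, IFN-γ library 3 and unstimulated libraries e and f. With both stimuli the sum was 121, 134 and 128, between unstimulated library c at 117 and libraries a and b. The 7 neutrophil genes, nearly all *Retnlg*, summed to 539 to 678 CPM in unstimulated cells a–c, 280.0 to 299 with *E. coli*, 587 to 689 with IFN-γ and 299 to 344 with both stimuli. They summed to 1664 to 1983 CPM in unstimulated cells d–f and 716 to 798 with IL-4. With that stimulus *Il5ra* was called higher, *Il3ra* was called lower, and *Csf2rb2* was lower without passing edgeR's test. *Ly6g*, another of the neutrophil genes, went the other way from *Retnlg* with both stimuli, rising by 1.63 (adjusted p = 6.9e-04). It also rose by 2.27 with IFN-γ (adjusted p = 2.2e-05). *Camp*, *Ltf*, *Ngp*, *Mpo* and *Elane* were each at 0 in some libraries. Of the eosinophil genes, *Siglecf* changed in the direction of *Il5ra* in each comparison, by -0.68, -0.70, -1.55 and 0.39 with *E. coli*, IFN-γ, both stimuli and IL-4, and was called in all of them. *Prg2* was called lower with IFN-γ and both stimuli (-0.81 and -1.13) and higher with IL-4 (0.83). *Ear6* was called higher with *E. coli*, both stimuli and IL-4 and lower with IFN-γ, and *Ccr3* lower with IL-4. *Alox15* was called lower with both stimuli (-0.60) and was not called with *E. coli*, IFN-γ or IL-4. The part of the mixture of cells in the receptor results was not tested.

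*Il3ra* encodes the α chain for IL-3. It was at 44.3, 45.6 and 52.9 normalized CPM in unstimulated cells a–c, and at 49.4, 37.8 and 51.3 with *E. coli*. With IFN-γ it was at 38.1, 40.0 and 22.9, all below the unstimulated libraries, and with both stimuli at 29.2, 46.6 and 40.2. In order from the lowest mean the groups were IFN-γ (33.6 ± 9.36, SD, n = 3), both stimuli (38.7 ± 8.78), *E. coli* (46.2 ± 7.33) and unstimulated cells (47.6 ± 4.59), and each overlapped its neighbour. The log2 fold changes of -0.06, -0.49 and -0.29 with *E. coli*, IFN-γ and both stimuli did not pass edgeR's test (adjusted p = 0.86, 0.077 and 0.26).

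In the 6-library set *Il3ra* was at 42.8, 72.4 and 40.0 normalized CPM in unstimulated cells d–f and at 29.7, 24.6 and 31.6 with IL-4. Library e stood far above d and f, and the IL-4 libraries lay below all of them. Library e also differed most from its replicates over all genes, with a chi-square per gene of 23.7 against d and 21.96 against f, beside 7.86 between d and f and 3.72 to 5.25 among IL-4 libraries. *Il3ra* fell by 0.87 on the log2 scale (SE 0.23, adjusted p = 0.041). Without library e the log2 fold change was -0.54 (adjusted p = 0.045). The call was lost without IL-4 library 1, 2 or 3 (adjusted p = 0.14, 0.17 and 0.093), in fits that called fewer genes of all as well.

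*Csf2ra* encodes the α chain for GM-CSF. Deposited counts put it at 1135, 1522 and 1238 normalized CPM in unstimulated cells a–c, 1340.4, 1175 and 1356 with *E. coli*, and 1379.7, 1293 and 1363 with IFN-γ. With both stimuli it was at 1392, 1289 and 1267. The group means ran from 1290.4 to 1345, closer together than the SD of 200.5 over the unstimulated libraries, and all neighbours overlapped. Log2 fold changes of -0.01, 0.05 and 0.02 with *E. coli*, IFN-γ and both stimuli did not pass the test (adjusted p = 0.97, 0.78 and 0.90).

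After the collision correction *Csf2ra* was at 1571, 1766 and 1689 CPM in unstimulated cells a–c and at 2049.7, 2008 and 1714 with *E. coli*. It was at 1620.2, 1539 and 1472 with IFN-γ and at 1452, 1469.9 and 1321 with both stimuli. The libraries with both stimuli then lay below all others, next to those with IFN-γ. The log2 fold changes became 0.20, -0.12 and -0.24 (adjusted p = 0.16, 0.43 and 0.063), so that the directions with all these stimuli turned. In the 6-library set *Csf2ra* was at 3589, 3279 and 3193 normalized CPM in unstimulated cells d–f and at 2989, 2909 and 2891 with IL-4, without overlap, and its log2 fold change of -0.19 (SE 0.10) did not pass the test (adjusted p = 0.25).

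*Csf2rb* encodes the β chain common to all these receptors. Deposited counts put it at 1315, 1773 and 1516 normalized CPM in unstimulated cells a–c and at 1661, 1367 and 1968 with *E. coli*. It was at 2117, 1992 and 2467 with IFN-γ and at 2881, 2199.8 and 2553 with both stimuli. After scaling to library size, every library with IFN-γ, alone or with *E. coli*, lay above every unstimulated and every *E. coli* library, and the latter groups overlapped. The log2 fold change was 0.51 with IFN-γ (SE 0.15, adjusted p = 0.014), 0.73 with both stimuli (SE 0.15, adjusted p = 5.6e-04) and 0.12 with *E. coli* (SE 0.15, adjusted p = 0.60). The call with IFN-γ was lost without unstimulated library a (adjusted p = 0.078) or IFN-γ library 3 (adjusted p = 0.063).

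The deposited counts behind these levels were 3528, 2798 and 3672 in unstimulated cells a–c and 4072, 4089 and 3985 with *E. coli*, the latter 97.3% to 99.8% of the 4096 identifiers. They were 3782, 3887 and 3772 with IFN-γ and 3945, 4015 and 3872 with both stimuli. Corrected counts put *Csf2rb* at 2279, 2299 and 2909.7 CPM in unstimulated libraries and at 6499, 6556 and 5572 with *E. coli*, where the counting error of the corrected count in *E. coli* library 2 was 1538 on 26099.

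Corrected levels were 4519, 4783 and 5251 CPM with IFN-γ and 7654, 6749 and 6065 with both stimuli. Unstimulated libraries were then the lowest, followed by IFN-γ and by *E. coli*, with no overlap, and *E. coli* overlapped with both stimuli. The log2 level rose by 1.31 with *E. coli* (SE 0.13, adjusted p = 3.2e-07), by 0.96 with IFN-γ (SE 0.13, adjusted p = 1.1e-05) and by 1.45 with both stimuli (SE 0.13, adjusted p = 3.3e-08). *Csf2rb* in the 6-library set was at 2217, 2496 and 2060.3 normalized CPM in unstimulated cells d–f and at 1956, 2030.4 and 1814 with IL-4, just without overlap, and its log2 fold change of -0.22 (SE 0.11) did not pass the test (adjusted p = 0.24).

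*Csf2rb2* encodes the β chain that serves the mouse IL-3 receptor. It was at 595, 715 and 714 normalized CPM in unstimulated cells a–c and at 1273, 1136 and 1233 with *E. coli*. It was at 1122, 1163 and 1456 with IFN-γ and at 1764, 1474 and 1782 with both stimuli. All stimulated libraries of this set lay above the unstimulated ones, *E. coli* and IFN-γ overlapped, and the libraries with both stimuli lay highest. The log2 level rose by 0.85 with *E. coli* (SE 0.13, adjusted p = 5.3e-05), by 0.89 with IFN-γ (SE 0.13, adjusted p = 3.1e-05) and by 1.31 with both stimuli (SE 0.13, adjusted p = 1.2e-07), 1.80-fold, 1.85-fold and 2.48-fold. From corrected counts the rises were 1.41, 1.10 and 1.68.

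In the 6-library set *Csf2rb2* was at 576, 895 and 533 normalized CPM in unstimulated cells d–f and at 423, 447 and 431 with IL-4. The IL-4 libraries lay close together below all unstimulated ones, of which e was far above d and f. The log2 fold change of -0.62 (SE 0.18) just missed the threshold in edgeR (adjusted p = 0.053). It passed in DESeq2 (adjusted p = 0.0083) and after leaving out unstimulated library d, e or f (log2 fold changes of -0.72, -0.36 and -0.77, adjusted p = 0.038, 0.018 and 0.036). It was not called without IL-4 library 1, 2 or 3 (adjusted p = 0.19, 0.15 and 0.15), in fits that called fewer genes of all as well.

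**Figure D3:**
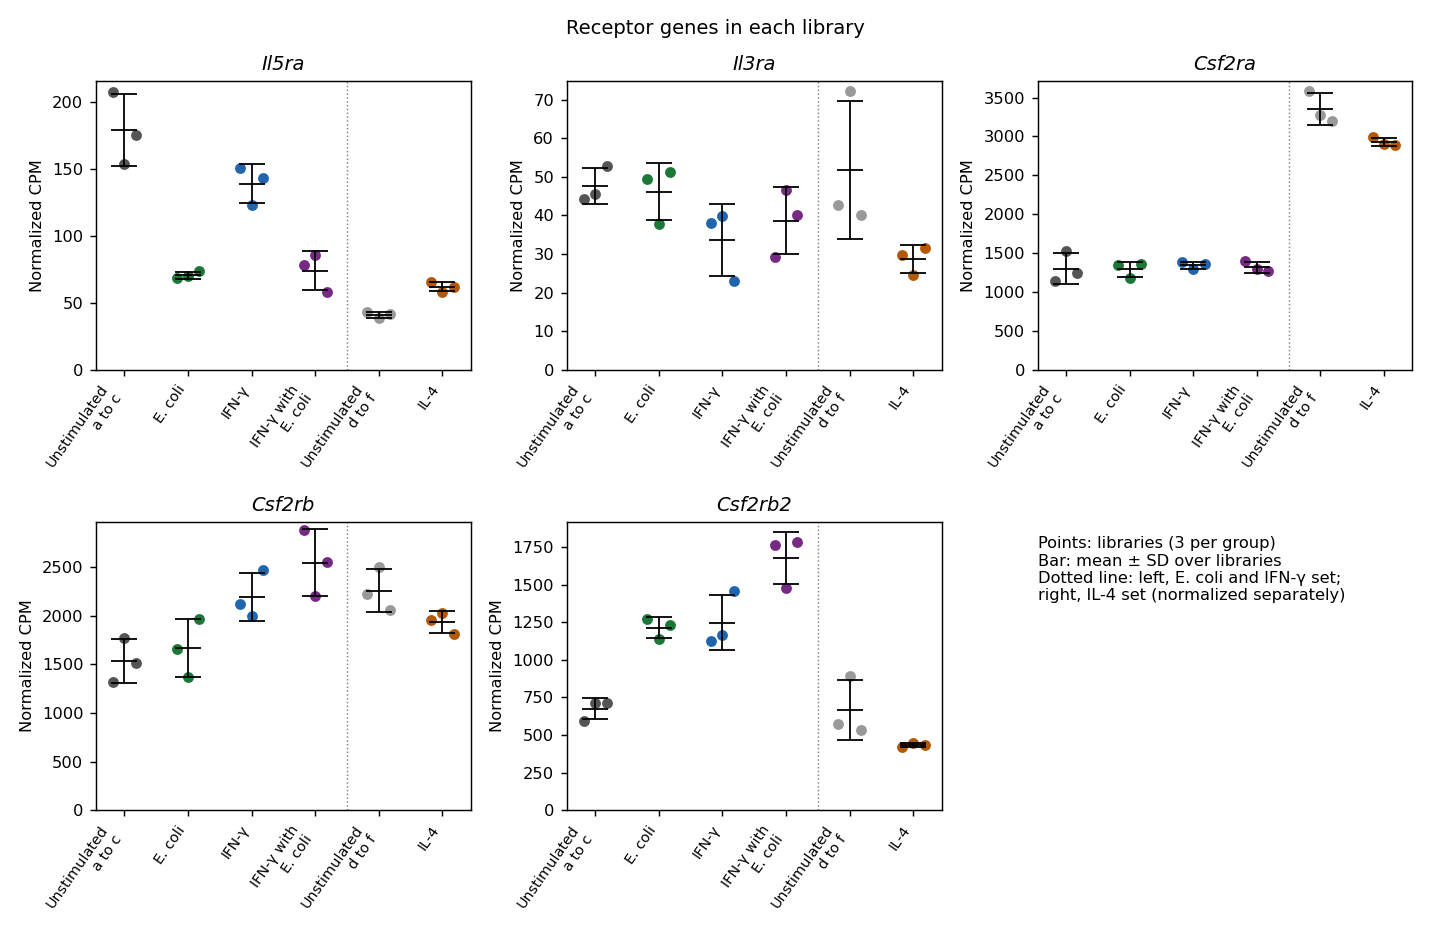
Normalized CPM from deposited counts of the 5 receptor genes (vertical axes, starting at 0) in each library by group, with points for libraries, bars for the mean ± SD of 3 libraries and a dotted line between the sets. *Il5ra* has its lowest mean in the 12-library set with *E. coli*, at 70.7, and *Csf2rb2* is highest with both stimuli, at 1474 to 1782.

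Macrophages also carry the β chain, and 9 macrophage genes were read beside it. They summed to 1078, 960.2 and 1065 normalized CPM in unstimulated cells a–c, 1563, 1496 and 1460.3 with IFN-γ, and 1321, 1478 and 1676 with both stimuli. With *E. coli* the sum was 692, 632 and 1007, mostly below the unstimulated libraries, whereas *Csf2rb2* was above them. In the 6-library set the sum was 2188, 2482 and 2789 in unstimulated cells d–f and 1835, 1754 and 2025 with IL-4. In each library 8 or 9 of the 9 were above the floor and none was at 0, and the most abundant was *Csf1r* in the 12-library set, except for *Marco* in libraries 2 and 3 of both stimuli, and *C1qb* or *C1qc* in the 6-library set. With *E. coli* *Timd4*, *Marco* and *Cd5l* were called lower, and with IL-4 *Csf1r*, *C1qb*, *Marco* and *Cd5l*. With IFN-γ *Csf1r*, *C1qb*, *Mertk* and *Marco* were called higher and *Gata6* lower, and with both stimuli *C1qb*, *Mertk* and *Marco* were called higher and *Cd5l* lower. The 8 mast cell and basophil genes, led by *Tpsb2* or *Cma1*, summed to 7.43 to 10.1 CPM in unstimulated cells a–c, 6.69 to 34.6 with *E. coli*, 13.1 to 30.2 with IFN-γ and 36.5 to 72.9 with both stimuli, with *Mcpt8* at 0 in all those libraries. They summed to 6.96 to 8.61 CPM in unstimulated cells d–f and 8.47 to 21.0 with IL-4. The part of these cells in the β chain results was not tested.

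Because a ratio inside a library does not depend on scaling, the β chain genes were also set against each other. The *Csf2rb* to *Csf2rb2* ratio of deposited counts was 2.21, 2.48 and 2.12 in unstimulated cells a–c and 1.30, 1.20 and 1.60 with *E. coli*. It was 1.89, 1.71 and 1.69 with IFN-γ and 1.63, 1.49 and 1.43 with both stimuli. Every stimulated library of this set thus lay below the unstimulated ones. The mean log2 ratio differed from that of unstimulated cells by -0.74, -0.36 and -0.58 with *E. coli*, IFN-γ and both stimuli, each with an exact two-sided permutation p = 0.10, the smallest that 3 against 3 libraries allow. From corrected counts these differences shrank to -0.08, -0.12 and -0.23 (exact p = 0.40, 0.30 and 0.30), with ratios of 3.57 to 4.13 in unstimulated cells a–c and 2.69 to 3.84 in the stimulated ones. With IL-4 the ratio was 4.62, 4.54 and 4.21, against 3.85, 2.79 and 3.86 in unstimulated cells d–f, a log2 difference of 0.36 (exact p = 0.10). The difference was 0.21 without unstimulated library e, and the exact p was 0.30 without IL-4 library 1 or 2.

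The share of *Il5ra* in the summed counts of the α chains *Il5ra*, *Il3ra* and *Csf2ra* was used for its change between groups and not to rank the genes. It was 14.96%, 8.94% and 11.99% in unstimulated cells a–c, and 4.70%, 5.45% and 4.97% with *E. coli*. It was 9.63%, 8.45% and 9.37% with IFN-γ, and 5.21%, 6.05% and 4.25% with both stimuli. Only the groups with *E. coli* lay apart from the unstimulated ones. The Wilson interval at 95% confidence, which covers counting error only, ran from 13.9% to 16.1% in unstimulated library a. The mean share was lower by 6.93 percentage points with *E. coli* and 6.79 with both stimuli than in unstimulated cells (exact two-sided permutation p = 0.10 each), and on corrected counts the differences were -5.06 and -3.96. With IFN-γ it differed by -2.82 (exact p = 0.30), by -1.32 without unstimulated library a, by -4.33 without b and by -1.23 on corrected counts. The direction with IFN-γ turned when *Csf2ra* was left out of the sum, to a difference of 1.71 (exact p = 0.7). With IL-4 the share was 2.12%, 1.95% and 2.08%, against 1.18%, 1.13% and 1.26% in unstimulated cells d–f (exact p = 0.10).

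Cells given both stimuli were compared with those given either alone. Against IFN-γ alone edgeR called 2 receptor genes, against 12.2% of all genes. *Il5ra* was lower by a log2 fold change of -0.90 (SE 0.15, adjusted p = 4.3e-04), and *Csf2rb2* was higher by 0.42 (SE 0.13, adjusted p = 0.035). The latter call was lost without IFN-γ library 1 or 2 or without library 1 or 3 of both stimuli (adjusted p = 0.17, 0.16, 0.12 and 0.11). On corrected counts 3 were called, against 12.9%, with *Csf2rb* at 0.49 (SE 0.12, adjusted p = 0.013) as well.

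Against *E. coli* alone 2 receptor genes were called on deposited counts, against 32.8% of all genes. After scaling to library size, *Csf2rb* was higher by 0.61 (SE 0.15, adjusted p = 0.0042) and *Csf2rb2* by 0.46 (SE 0.13, adjusted p = 0.0086). *Il5ra* did not pass the test at 0.07 (SE 0.15, adjusted p = 0.75). The unscaled counts of *Csf2rb*, near the ceiling of 4096, were 3945, 4015 and 3872 with both stimuli and 4072, 4089 and 3985 with *E. coli*. Counts on genes were 1523808 to 1970637 in the former libraries and 1980073 to 2734041 in the latter. On corrected counts neither β chain gene was called, with log2 fold changes of 0.14 and 0.27 (adjusted p = 0.44 and 0.13). The 1 gene called there, against 32.6%, was *Csf2ra*, which was lower by a log2 fold change of -0.44 (SE 0.11, adjusted p = 0.0032).

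The interaction, which is the departure of the joint response from the sum of both single log2 responses, was called for 0 of the 5 receptor genes on deposited counts by edgeR, against 4.62% of all genes. DESeq2 also called 0, and 2 genes, *Il5ra* (0.45, SE 0.20) and *Csf2rb2* (-0.42, SE 0.18), had an unadjusted p under 0.05 in edgeR (adjusted p = 0.27 and 0.23). On corrected counts 2 were called, against 5.3%. They were *Csf2rb* at -0.82 (SE 0.18, adjusted p = 0.0096) and *Csf2rb2* at -0.82 (SE 0.19, adjusted p = 0.016). Taken at these values, the joint rise was smaller than the sum of the single rises. The SE and p do not model the error that the correction adds, which for *Csf2rb* in *E. coli* library 2 was 1538 on 26099. The deposited value for *Csf2rb* was 0.10 (SE 0.21, adjusted p = 0.88).

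The response to IL-4 was tested against the other responses in a model of all 18 libraries. Compared with the response to *E. coli*, 2 receptor genes differed, against 28.1% of 10671 genes, compared with IFN-γ 3, against 27.8%, and compared with both stimuli 3, against 39.2%. *Il5ra* was among them in each case, with a log2 response higher by 1.93, 0.94 and 1.81 than that to *E. coli*, IFN-γ and both stimuli (adjusted p = 2.3e-07, 0.0010 and 3.3e-07). The response of *Csf2rb2* differed by -1.49, -1.54 and -1.99 (adjusted p = 2.9e-05, 1.9e-05 and 3.6e-07). That of *Csf2rb* differed by -0.77 from IFN-γ and by -1.01 from both stimuli (adjusted p = 0.0070 and 4.6e-04).

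With corrected counts for the 12-library set 4, 3 and 3 receptor genes differed in these comparisons, against 28.3%, 27.4% and 38.9% of 10887 genes. *Csf2rb* then also differed from its response to *E. coli*, by -1.56 (adjusted p = 8.4e-07), and *Csf2ra* by -0.41 (adjusted p = 0.036). The *Il3ra* response to IL-4 was not told apart from that to *E. coli* at -0.83 (SE 0.31, adjusted p = 0.051 on deposited counts). It passed with the size factors of DESeq2 (adjusted p = 0.043), with no filter (adjusted p = 0.013), and without *E. coli* library 2 or unstimulated library d or f (adjusted p = 0.037, 0.027 and 0.020).

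The genes whose log2 CPM over the 12 libraries of the 12-library set was most like that of a receptor gene were listed by Pearson correlation, as a description of libraries that share groups and sequencing. For *Il5ra* these were *4930523C07Rik* and *Rbm43* (r = 0.97 each) and *Pcmtd2*, *Cd180* and *Ssh2* (r = 0.96 each). *Cd180*, which encodes a surface protein of B cells and myeloid cells, averaged 119 normalized CPM in unstimulated cells, 23.1 with *E. coli*, 28.7 with both stimuli and 99.3 with IFN-γ alone. For *Csf2rb2* they were *Hif1a* and *Gnb1* (r = 0.99 each) and *Fbxl5*, *Ube2d3* and *Ap3s1* (r = 0.98 each). *Hif1a*, the oxygen-regulated transcription factor gene, averaged 541 CPM in unstimulated cells and 835, 910.2 and 1082 with *E. coli*, IFN-γ and both stimuli.

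For *Csf2rb* the genes most alike were *Aldoa*, *Lcp1*, *Gnas* and *Pkm* (r = 0.98 each) and *Basp1* (r = 0.97), whose counts reached 2060 to 3800 of the 4096 identifiers. For *Csf2ra* they were *Calm2* (r = 0.92), *Vps16* (r = 0.90), *Ly6e* (r = 0.87), *Alox5ap* and *Cd24a* (r = 0.84 each), and all but *Vps16* reached 3637 to 4060 counts. How far the ceiling shapes these likenesses was not tested. For *Il3ra* they were *Fen1* and *Hmgb3* (r = 0.89 each) and *Chid1*, *Dus2* and *Supt3* (r = 0.88 each), which had at most 50 counts in a library. Among the receptor genes themselves r ran from -0.77, between *Il5ra* and *Csf2rb2*, to 0.80, between *Csf2rb* and *Csf2rb2*.

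Of the ligand genes, *Il3* had 0 counts in all 18 libraries, which allows at most 3 counts in each. *Csf2*, which encodes GM-CSF, had 4, 6 and 4 counts with *E. coli*, at most 1 with both stimuli and 0 in the remaining libraries. *Il5* was at 456, 598 and 494 normalized CPM in unstimulated cells a–c, 848, 834 and 865 with *E. coli*, 520.0, 515 and 561 with IFN-γ, and 734, 680.5 and 735 with both stimuli. Its log2 level rose by 0.72 with *E. coli* (SE 0.11, adjusted p = 6.3e-05) and by 0.48 with both stimuli (SE 0.11, adjusted p = 0.0016), in the libraries where *Il5ra* was lowest, and on corrected counts by 0.99 and 0.49. Counts per gene do not tell transcripts of the transgene from those of the endogenous gene. *Il5* in the 6-library set was at 325, 392.3 and 245 CPM in unstimulated cells d–f and 264, 294 and 226 with IL-4 (log2 fold change -0.29, adjusted p = 0.32).

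Below the receptor stand kinases and phosphatases that start or end its signal. Counts in this and the following lists stand against all genes tested, of which 1337 were higher and 1649 lower with *E. coli* (30.2% called), 1541 and 1579 with IFN-γ (31.6%), 2358 and 2486 with both stimuli (49%) and 630 and 459 with IL-4 (10.3%). Of 11 such genes, 1 was higher and 3 lower with *E. coli*, 1 higher and 1 lower with IFN-γ, 2 higher and 4 lower with both stimuli, and 2 higher with IL-4, with the rest not called. Their median log2 fold changes were -0.07, -0.06, -0.19 and -0.07. *Fes*, a cytoplasmic tyrosine kinase, changed by -0.41, -0.63 and -1.22 with *E. coli*, IFN-γ and both stimuli (adjusted p = 0.0064, 1.6e-04 and 4.2e-08), and *Ptpn11*, the SHP-2 phosphatase, rose by 0.71 with *E. coli* (adjusted p = 2.7e-05). *Btk* fell by 0.89 with both stimuli (adjusted p = 7.6e-06) and rose by 0.67 with IL-4 (adjusted p = 0.0038), and *Tyk2* fell by 0.66 with both stimuli (adjusted p = 0.0046). With corrected counts 2 were higher with *E. coli*, 2 lower with IFN-γ, and 1 higher with both stimuli.

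Of 5 STAT genes, 1 was higher and 2 lower with *E. coli*, 4 higher with IFN-γ, 4 higher with both stimuli and 1 higher with IL-4, with medians of -0.22, 0.70, 0.59 and 0.32. *Stat3* averaged 208 normalized CPM in unstimulated cells a–c, 277 with *E. coli*, 573 with both stimuli and 502 with IFN-γ alone. *Stat5b*, which acts below these receptors, was at 0.06 with *E. coli* (adjusted p = 0.86) and rose by 0.70 with IFN-γ (adjusted p = 0.014), and *Stat6*, which carries the IL-4 signal, fell by 0.32 with *E. coli* (adjusted p = 0.021) and rose by 0.49 with IFN-γ (adjusted p = 0.0011).

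Of 19 genes of the RAS-MAPK and PI3K branches, 4 were higher and 2 lower with *E. coli*, 5 higher and 2 lower with IFN-γ, 6 higher and 3 lower with both stimuli and 1 higher with IL-4, with medians of 0.13, 0.09, 0.17 and -0.08. *Map2k1*, which encodes the kinase MEK1, rose in all these comparisons, by 0.43, 1.05, 1.67 and 0.52 (adjusted p = 0.011, 2.5e-06, 2.4e-09 and 0.012). *Gab2*, an adaptor of PI3K, rose by 1.23 with both stimuli (adjusted p = 7.9e-06), where *Pik3r1* and *Pik3r5*, which encode regulatory subunits of PI3K, fell by 1.03 and 0.98 (adjusted p = 1.8e-05 and 1.5e-04). On corrected counts 5 of the 19 were lower with both stimuli.

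Among 12 target and feedback genes of STAT5, 11 were tested, and *Myc* was not. With *E. coli* 8 were higher and 3 not called, and with IFN-γ 2 were higher and 5 lower. With both stimuli 8 were higher and 3 lower, and with IL-4 5 were higher and 6 not called. Medians were 0.73, -0.19, 0.54 and 0.35. *Pim2*, which encodes a survival kinase, averaged 137 normalized CPM in unstimulated cells, 825 with *E. coli*, 378 with both stimuli and 54.8 with IFN-γ alone, log2 fold changes of 2.59, 1.47 and -1.32 (adjusted p = 2.8e-12, 1.1e-09 and 5.8e-08). *Socs3*, a feedback inhibitor, rose by 2.00 with *E. coli*, 2.31 with both stimuli and 1.32 with IL-4 (adjusted p = 2.0e-06, 1.2e-07 and 2.4e-04). *Id1* fell by 1.52 with IFN-γ and by 1.98 with both stimuli and rose by 0.98 with IL-4 (adjusted p = 4.5e-08, 8.5e-10 and 0.0037), and the cytokine gene *Osm* rose by 1.75 with both stimuli (adjusted p = 4.2e-09).

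The BCL2 family genes read numbered 10, anti- and pro-apoptotic ones together, so their counts and medians give no direction of survival. With *E. coli* 4 were higher, with IFN-γ 4 higher and 5 lower, with both stimuli 4 higher and 4 lower, and with IL-4 1 higher and 1 lower, with medians of 0.24, -0.62, -0.33 and -0.17. The anti-apoptotic *Bcl2l1* averaged 71.5 normalized CPM in unstimulated cells, 204 with *E. coli*, 90.6 with both stimuli and 40.2 with IFN-γ alone, log2 fold changes of 1.52, 0.35 and -0.83 (adjusted p = 6.6e-08, 0.045 and 3.4e-04). *Bcl2* itself rose by 1.22 with *E. coli* and fell by 1.00 with IFN-γ (adjusted p = 8.8e-05 and 0.0055). The pro-apoptotic *Bcl2l11*, which encodes BIM, rose by 0.79 with IFN-γ, 1.21 with both stimuli and 0.82 with IL-4 (adjusted p = 0.0011, 5.3e-06 and 0.0049), and *Bcl2a1a* fell by 1.09 with IFN-γ (adjusted p = 6.6e-07). *Bcl2a1a* has close copies in the genome, and whether reads were told apart between them was not tested. On corrected counts 1 gene of the family was also lower with *E. coli*.

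Of 8 genes for proteases and ligases that cut or remove surface receptors, 3 were higher and 1 lower with *E. coli*, 2 higher with IFN-γ, 4 higher and 1 lower with both stimuli, and 2 lower with IL-4, with medians of 0.14, 0.21, 0.14 and -0.23. *Adam17*, a sheddase, rose by 0.38, 1.01 and 1.16 with *E. coli*, IFN-γ and both stimuli (adjusted p = 0.028, 5.5e-06 and 4.7e-07). *Furin*, a proprotein convertase, rose by 1.00 and *Adam10*, another sheddase, by 0.64 with *E. coli* (adjusted p = 6.6e-04 and 9.2e-04). *Psen2*, of the γ-secretase, fell by 0.59 with IL-4 (adjusted p = 0.037).

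Among 23 other receptors of the same class I family, 13 were tested. With *E. coli* 4 were higher and 1 lower, with IFN-γ and with both stimuli 3 higher and 2 lower, and with IL-4 1 higher and 12 not called, with medians of 0.44, 0.19, 0.20 and 0.19. *Il13ra1*, a chain of the IL-4 and IL-13 receptors, averaged 6.37 normalized CPM in unstimulated cells and 67.6 with IFN-γ, a rise of 3.38 (adjusted p = 5.0e-09), and *Il2rg* rose by 1.49 with IFN-γ (adjusted p = 1.0e-08). *Lifr* fell by 1.77 with IFN-γ and by 1.86 with both stimuli (adjusted p = 5.9e-05 and 2.4e-05). *Il12rb1* had 1 count over unstimulated cells a–c and 29 over the IFN-γ libraries, a ratio of counts per library total of 32.5 with an exact 95% counting interval of 5.39 to 1329. On corrected counts 12 of these receptors were tested, 2 were higher with IFN-γ and the median there was 0.08.

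Of 11 transcription factors of the eosinophil lineage, 5 were higher and 1 lower with *E. coli*, 2 higher and 6 lower with IFN-γ, 2 higher and 6 lower with both stimuli, and 2 lower with IL-4, with medians of 0.21, -0.50, -0.41 and -0.15. *Cebpb* rose by 0.51, 0.85 and 1.08 with *E. coli*, IFN-γ and both stimuli and fell by 0.54 with IL-4 (adjusted p = 0.0068, 8.2e-05, 2.6e-06 and 0.025), and the rises were 1.10, 1.24 and 1.60 on corrected counts. *Runx1* rose by 1.02 with *E. coli* and fell by 0.52 with IFN-γ (adjusted p = 2.8e-06 and 0.0040), and *Ikzf1* fell by 1.38 with both stimuli (adjusted p = 1.3e-08). *Cebpa* was low, at a mean of 7.17 CPM in unstimulated cells a–c, and fell by 1.74 with IFN-γ (adjusted p = 0.0080). On corrected counts 6 were higher with *E. coli* and 7 lower with IFN-γ, and the medians with *E. coli* and with both stimuli were 0.37 and -0.63.

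On GRCm38 the α chain genes lie apart. *Il5ra* is at chr6:106710357-106749037 on the minus strand, *Il3ra* at chr14:14346275-14356011 on the plus strand and *Csf2ra* at chr19:61223957-61228429 on the minus strand. The β chain genes lie side by side, *Csf2rb2* at chr15:78282507-78305721 on the minus strand and *Csf2rb* at chr15:78325752-78353847 on the plus strand. Their starts are 20031 bases apart and point away from each other. Within 100 kb of the 5 genes are 16 other protein-coding genes, of which 4 were tested in the 12-library set. *Ncf4*, a subunit gene of the phagocyte oxidase next to *Csf2rb2*, rose by 0.39 with *E. coli* (SE 0.11, adjusted p = 0.012), and by 0.29 with both stimuli (SE 0.11, adjusted p = 0.038), where *Zfp950*, near *Csf2ra*, fell by 0.96 (SE 0.27, adjusted p = 0.0067). With *E. coli* 1 of the 4 was thus called higher, and with both stimuli 1 higher and 1 lower, against 30.2% and 49% of all genes called. None of the 4 was called with IFN-γ (31.6% of all genes), and none of 5 tested with IL-4 (10.3%). These few genes were not tested against those shares.

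**Figure D4:**
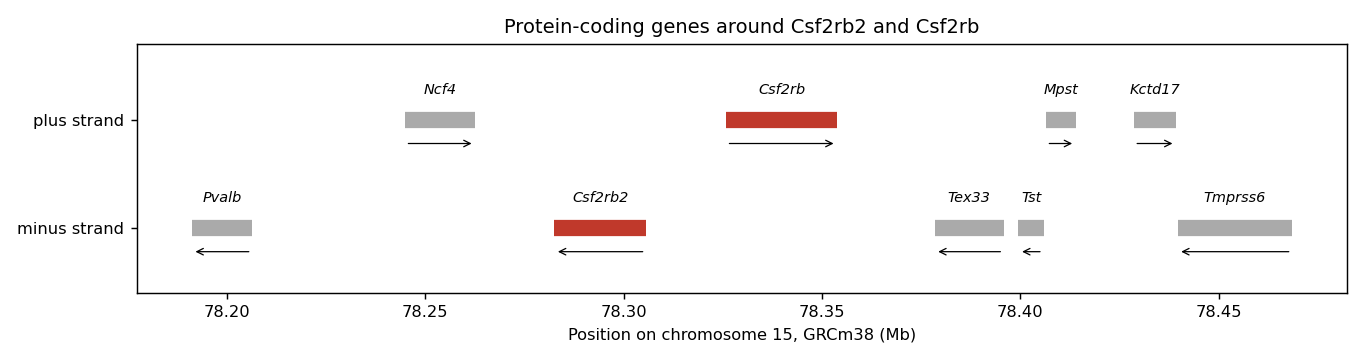
Protein-coding genes within 100 kb of *Csf2rb2* and *Csf2rb* (red) on chromosome 15 of GRCm38, drawn to scale by strand, with position in Mb on the horizontal axis and arrows for the direction of transcription. The β chain genes start 20031 bases apart.

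*Csf2rb* and *Csf2rb2* are near copies, so shared sequence was counted in their longest annotated transcripts. Of the 50-base words of *Csf2rb*, 894 of 4851 (18.4%) occur in another gene's transcripts, and of those of *Csf2rb2* 912 of 4691 (19.4%), with 892 shared between them. None of the 951 words in the last 1000 bases of either transcript occurs elsewhere, whereas 24 of 951 (2.52%) do for *Il5ra*. As these libraries read transcripts from the 3′ end, where the copies differ, their counts are separable as far as reads come from that end. *Il3ra* overlaps the antisense gene *Gm48860* by 46 exon bases, and that gene had at most 1 count in a library.

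RefSeq promoter sequences, from the GRCm38.p6 build, were present for 4 of the receptor genes and were searched on both strands for 5 short motifs, since *Il5ra* and *Csf2rb2* moved in opposite directions with *E. coli*. Of all 32851 promoters of the same length, 25.4% hold GATAA, bound by GATA factors, 8.30% TTCNNNGAA, bound by STAT dimers, and 35.4% AGGAAG, bound by ETS factors. TTGCNNAA, of C/EBP factors, is in 10.8% and GGGACTTTC, of NF-κB, in 0.353%. *Il5ra* held 1 GATAA and *Csf2rb2* 1 GATAA, 1 TTCNNNGAA and 2 AGGAAG. *Il3ra* held 1 AGGAAG and 1 TTGCNNAA, *Csf2ra* 2 AGGAAG, and *Csf2rb* was not among the sequences. The promoters of *Il5ra* (chr6:106748988-106749287, minus strand) and *Csf2rb2* (chr15:78305672-78305971, minus strand) are printed from 5′ to 3′ with these matches, on either strand, in capitals.
*Il5ra*: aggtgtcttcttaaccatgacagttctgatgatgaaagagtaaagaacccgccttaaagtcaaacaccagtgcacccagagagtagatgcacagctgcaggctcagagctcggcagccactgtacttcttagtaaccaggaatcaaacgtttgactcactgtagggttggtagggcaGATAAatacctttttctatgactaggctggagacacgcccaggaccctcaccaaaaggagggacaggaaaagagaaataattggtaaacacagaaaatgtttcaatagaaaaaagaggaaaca
*Csf2rb2*: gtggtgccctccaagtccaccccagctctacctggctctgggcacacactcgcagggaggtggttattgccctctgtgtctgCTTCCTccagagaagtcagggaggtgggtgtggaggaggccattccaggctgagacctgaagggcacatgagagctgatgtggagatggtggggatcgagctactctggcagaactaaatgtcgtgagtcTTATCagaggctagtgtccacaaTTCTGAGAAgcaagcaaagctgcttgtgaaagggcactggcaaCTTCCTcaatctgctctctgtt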

How the data were processed

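The authors made libraries by CEL-Seq2 and deposited counts per gene on GRCm38 with Ensembl 97 annotation, and the submitters' notes name TopHat2 2.1.0, HTSeq 0.6.1, fastp 0.20.1 and STAR 2.7.2a without saying which libraries each served. Lines that name no gene, 21.1% to 39.4% of the counts in the 12-library set, were left out of library sizes. Counts were scaled by TMM and tested with the quasi-likelihood test of edgeR 4.0.16 in R 4.3.3, with low-count genes removed by its filter and p adjusted over all genes tested by Benjamini and Hochberg. SE values are approximate, being the fold change over the root of F. Alternatives were DESeq2 1.42.0, other filters and scalings, leaving out single libraries and counts corrected for identifier collisions, and the corrected versions of the IL-4 response differences, the ratio and the share were chosen after the data were seen. The receptor genes and the lists were chosen with earlier results of these data known. List genes are named for the largest fold changes among those called, at most 4 in a list. A gene that this rule names is not reported here. Libraries with the same number were not treated as pairs, and unstimulated libraries carry letters in place of numbers. The mean correlations of same-numbered libraries, as deviations from group means, were 0.0515, 0.111 and 0.166 and the smallest were -0.0163, 0.0706 and -0.045. For different numbers the means were lower, at -0.026, -0.054 and -0.082, so that a shared origin of same-numbered libraries is not excluded. Gene positions are from GENCODE M21.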

Additional observations from a re-analysis of the deposited data

Results flagged for a closer look

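Differences between responses that passed edgeR's test are listed here, each on the log2 scale as a difference between groups. On deposited counts the response of *Il5ra* to IL-4 exceeded that to *E. coli* by 1.93 (SE 0.20), that to IFN-γ by 0.94 (SE 0.20) and that to both stimuli by 1.81 (SE 0.20). The response of *Csf2rb2* to IL-4 differed by -1.49, -1.54 and -1.99 from these (SE 0.22 each). That of *Csf2rb* differed by -0.77 from IFN-γ and by -1.01 from both stimuli (SE 0.20 each).

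On counts corrected for identifier collisions the *Il5ra* differences were 1.98, 0.98 and 1.92, against *E. coli*, IFN-γ and both stimuli in turn. Those of *Csf2rb* were -1.56, -1.19 and -1.67, and those of *Csf2rb2* -2.05, -1.73 and -2.30. *Csf2ra* differed by -0.41 from its response to *E. coli* (SE 0.14). The interaction of IFN-γ and *E. coli* was -0.82 for *Csf2rb* (SE 0.18) and -0.82 for *Csf2rb2* (SE 0.19). SE from corrected counts do not model the error that the correction adds. The IL-4 libraries and the others come from sets with different depth and different largest counts, and what this does to the differences was not tested.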

How the results depend on the processing

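Of 760 single-gene values under alternatives, 688 counted as the same, 36 lost the call, 21 gained it and 15 reversed, where a change of sign in a gene called in neither fit counts as the same if the value moved by at most 1 SE. Apart from corrected counts and fits without an IL-4 library, shares of all genes called under the alternatives are not given here. Fewer receptor genes called therefore cannot be told from a general loss of calls. With all 6 unstimulated libraries as a single group, which mixes sets of different depth, 1 receptor gene was called after *E. coli*, 1 after both stimuli and 0 after IL-4. In that fit *Csf2rb* was at -0.43 with *E. coli*, 0.20 with IL-4 and -0.013 with IFN-γ, *Il5ra* at 0.30 with IFN-γ and -0.48 with IL-4 and no longer called at -0.69 with *E. coli* (adjusted p = 0.23) and -0.58 with both stimuli (adjusted p = 0.27), *Il3ra* called at -0.76 with IFN-γ (adjusted p = 0.047), and *Csf2ra* at -1.06 with IFN-γ, -1.07 with both stimuli and 0.45 with IL-4. Requiring a change by a factor of 2 left 1 gene with *E. coli*, 0 after IFN-γ and 0 after IL-4. Correction for identifier collisions turned *Csf2ra* to 0.20 with *E. coli*, -0.12 with IFN-γ, -0.24 with both stimuli, -0.44 for both stimuli against *E. coli* and 0.055 for the IL-4 response against that to both stimuli, and the *Csf2rb* interaction to -0.82. It gave 1 gene for both stimuli against *E. coli*, 2 for the interaction and 4 for IL-4 against the *E. coli* response. With *Csf2rb* and *Csf2rb2* summed, 1 gene was called for both stimuli against IFN-γ and 1 against *E. coli*, where the sum makes a single gene of a pair, and with only the compared groups 1 was called against IFN-γ. Leaving out single libraries gave 1 to 3 genes with IFN-γ, 0 to 3 with IL-4 and 1 to 2 for both stimuli against IFN-γ, and *Csf2ra* with *E. coli* ranged from -0.10 to 0.14. Without unstimulated library b the IL-4 response of *Csf2ra* passed against that to IFN-γ at -0.41 and to both stimuli at -0.40. Without an IL-4 library the test called 483 to 515 genes of all, against 1089. The *Il5ra* share with IFN-γ minus that in unstimulated cells was -2.82 percentage points, and 1.71 with *Csf2ra* left out of the sum. With the replicate number as a replicate block, 2 genes were called for both stimuli against IFN-γ and 2 against *E. coli*, and no call changed. Where no reason is given the cause of a change was not tested. The correction was not run within the 6-library set, whose counts exceed 4096.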
